A study of Arabidopsis thaliana with 30 samples.

Results

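The 42 genes described here encode nuclear subunits of the photosynthetic machinery of Arabidopsis thaliana. They were listed by gene family, with earlier results of these data known. The list holds LHCA and LHCB genes of the chlorophyll-binding antenna, and PSB and PSA genes of photosystem II and photosystem I. It also holds RBCS genes of the small subunit of Rubisco. Rare relatives of the antenna genes, such as LHCA6, were kept in a separate list. They make up 42 of the 20404 genes in the deposited tables, and fall into 18 antenna, 8 photosystem II, 12 photosystem I and 4 Rubisco genes. All 42 passed the filter on low counts described below.

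RNA was sequenced from 7-day-old seedlings in 30 libraries, with 3 replicates in each of 10 groups. The 5 genotypes were compared, each after mock treatment and after treatment with methyl methanesulfonate (MMS), an agent that alkylates DNA. They were wild-type Columbia (Col), a mutant in the histone variant H2A.X (h2a.x-1, here X), a mutant in the histone variant H2A.W (h2a.w-2, here W), the mutant in both (h2a.x/w-2, here XW), and a mutant in TONSOKU (tsk), a repair protein of replication forks. Per the labels, every plant was grown on Murashige and Skoog medium in long days of 16 h light and 8 h dark at 22 °C, total RNA was extracted, and read ends of 150 nt were sequenced from both sides of each fragment. The labels give neither the dose nor the duration of MMS, nor what kind of allele each mutant carries, and their tissue field reads leaves while the protocol speaks of whole seedlings. Nothing in them states that the replicates are separate cultures, so the p-values may reflect no more than the technical spread of these libraries.

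In the thylakoid membrane, LHCB proteins harvest light for photosystem II and LHCA proteins for photosystem I. Photosystem II splits water with the help of the lumenal PSBO, PSBP and PSBQ proteins, and photosystem I passes electrons to ferredoxin on its stromal side, where PSAD and PSAE sit. Rubisco fixes carbon dioxide, and its small subunit comes from the nuclear RBCS genes while its large subunit is encoded in the plastid. These nuclear genes are among the most strongly transcribed of green tissue, are switched on by light, and are driven in part by the GOLDEN2-LIKE factors GLK1 and GLK2.

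Several of the genes lie in tandem, which matters for reading the counts. LHCB1.1, LHCB1.2 and LHCB1.3 lie together on chromosome 1 between 10472280 and 10479114, LHCB1.4 and LHCB1.5 are neighbours on chromosome 2, and RBCS1B, RBCS2B and RBCS3B lie together on chromosome 5 between 15376988 and 15385320 (TAIR10.1 annotation). The 250 bases before the annotated start of 6 genes are printed here, because these genes had the largest changes, the highest level or a changed MMS response in the results that follow, or are close relatives of such a gene. The sequences are from RefSeq's TAIR10.1 assembly, 5′ to 3′ on the strand of the gene, and capitals mark matches, on either strand, to 3 short motifs. The motifs searched were the G-box CACGTG, the I-box GATAAG and the box CCAATC. On the opposite strand the I-box reads CTTATC and the last of the 3 reads GATTGG. LHCB1.3 is shown as the antenna gene with the highest level, at chr1:10477635-10477884 on the plus strand. LHCB2.1 at chr2:1824481-1824730 and LHCB2.2 at chr2:1800473-1800722, both on the minus strand, are shown beside their relative LHCB2.3 at chr3:10255656-10255905 on the plus strand, which fell most under MMS. RBCS1B at chr5:15385321-15385570 and RBCS2B at chr5:15382072-15382321, both on the minus strand, are tandem relatives with unlike responses.
LHCB1.3: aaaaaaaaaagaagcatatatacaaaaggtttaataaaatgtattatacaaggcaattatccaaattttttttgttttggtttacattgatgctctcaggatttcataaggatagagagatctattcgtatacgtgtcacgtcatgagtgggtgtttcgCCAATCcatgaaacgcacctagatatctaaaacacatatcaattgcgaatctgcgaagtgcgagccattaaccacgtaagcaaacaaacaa
LHCB2.1: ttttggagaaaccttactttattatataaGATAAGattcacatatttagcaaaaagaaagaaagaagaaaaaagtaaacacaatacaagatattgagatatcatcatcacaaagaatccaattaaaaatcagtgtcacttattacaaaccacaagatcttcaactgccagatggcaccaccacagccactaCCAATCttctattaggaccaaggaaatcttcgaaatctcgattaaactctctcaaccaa
LHCB2.2: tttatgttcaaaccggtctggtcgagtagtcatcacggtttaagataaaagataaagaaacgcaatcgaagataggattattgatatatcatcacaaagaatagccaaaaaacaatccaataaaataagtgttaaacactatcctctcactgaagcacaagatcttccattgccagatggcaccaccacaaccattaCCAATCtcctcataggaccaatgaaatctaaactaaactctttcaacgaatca
LHCB2.3: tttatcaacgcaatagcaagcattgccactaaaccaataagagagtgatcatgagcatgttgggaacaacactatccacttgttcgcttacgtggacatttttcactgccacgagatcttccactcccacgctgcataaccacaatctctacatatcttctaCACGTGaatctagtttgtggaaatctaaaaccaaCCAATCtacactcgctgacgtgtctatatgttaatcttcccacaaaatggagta
RBCS1B: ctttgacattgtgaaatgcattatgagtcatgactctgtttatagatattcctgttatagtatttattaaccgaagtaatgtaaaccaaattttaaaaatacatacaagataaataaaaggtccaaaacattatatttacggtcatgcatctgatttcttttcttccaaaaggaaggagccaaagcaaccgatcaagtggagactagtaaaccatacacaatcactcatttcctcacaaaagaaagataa
RBCS2B: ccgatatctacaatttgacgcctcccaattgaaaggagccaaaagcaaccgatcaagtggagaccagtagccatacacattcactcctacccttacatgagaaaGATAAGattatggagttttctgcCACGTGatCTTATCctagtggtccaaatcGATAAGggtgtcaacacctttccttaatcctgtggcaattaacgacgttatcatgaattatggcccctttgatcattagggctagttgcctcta

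Each of the 4 LHCB promoters held 1 match to CCAATC, starting 91 bases before the gene in LHCB1.3, 59 in LHCB2.1, 53 in LHCB2.2 and 54 in LHCB2.3. LHCB2.3 also held a G-box 88 bases before the gene, and LHCB2.1 an I-box 221 bases before it. RBCS2B held a G-box at 123 and I-boxes at 146, 115 and 94 bases before the gene. None of the 3 motifs was found in the printed window of RBCS1B. Both windows are cut at the annotated start and do not cover matching sequence. The end of the RBCS1B window, up to its last bases gataa, resembles the RBCS2B sequence that leads into the I-box at 146. Sequence past that point in RBCS1B was not searched, so the missing matches do not show that these genes differ in the motifs. CCAATC was present in 10 of 18 antenna windows (55.6%), in 1 of 8 photosystem II windows, and in 0 of 12 photosystem I and 0 of 4 Rubisco windows. Of the 19815 windows of all protein-coding genes tested, 2087 (10.5%) held it. The G-box was present in 9 of the 42 windows (21.4%) against 7.48% of all, and the I-box in 10 (23.8%) against 12.5%. The matches are descriptions of these letters and were not tested as binding sites.

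The libraries held a median of 17028611 reads over the listed genes, from 15343687 (W MMS replicate 2) up to 25115027 (Col mock replicate 1). Reads were scaled by the authors with a size factor for each library, and the values below are these normalized counts, or normalized counts per kilobase of annotated exon (per kb) where genes are compared with each other. One library stood apart from its group, XW mock replicate 1. Its summed antenna level was 506276 per kb against 605601 and 661590 in the other XW mock libraries, and its summed photosystem I level was 282325 against 223445 and 230488. Green tissue was looked for with the members themselves and with RCA (Rubisco activase), which stood at 188427, 181030 and 183393 normalized counts in the Col mock libraries. Leaves and whole seedlings both hold green tissue, so these levels cannot tell them apart. Of 12 root markers listed, 11 were tested, and of 9 seed storage and oil body markers 1 was, CRA1, a seed storage globulin.

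In Col mock seedlings the levels of the 42 genes per kb of exon spanned a wide range, and a few of them carried much of the total. RBCS1A (AT1G67090) was the highest at 161886 ± 1707 normalized counts per kb (SD, n = 3), 12.1% of the sum over the 42 genes. LHCB1.3 (AT1G29930) followed at 155448 ± 8145 (11.6%), and the libraries of these 2 genes overlapped in level. RBCS3B at 79740 ± 3898 and LHCB1.5 at 76574 ± 1937 came next and also overlapped each other. RBCS2B at 61787 ± 382 was below both, and PSBR, a small photosystem II subunit, led the remaining genes at 48254 ± 1033.

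The lowest genes were members of the antenna and of small families. PSAD2, the minor gene for the ferredoxin-docking subunit PSAD, stood at 7183 ± 240 per kb, and LHCB2.3 at 3899 ± 505. LHCB4.3, a rare extra gene for the minor antenna protein CP29, was the lowest at 376 ± 35.1 per kb. Neighbouring genes in the order below RBCS2B often overlapped, as PSBO1 did with LHCB4.1 and LHCB5 with LHCA4.

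Summed by sub-group in Col mock, the antenna genes stood at 599438 ± 17848 per kb, the Rubisco genes at 314939 ± 5774, the photosystem I genes at 218896 ± 1980 and the photosystem II genes at 205255 ± 450 (SD, n = 3). The 42 genes took 8.69% ± 0.121 of the reads of the Col mock libraries and 4.59% ± 0.280 of those of Col MMS. Over all genotypes their share was 7.79% to 10.3% in the 15 mock libraries, with a median of 8.77%, and 4.19% to 6.16% in the 15 MMS libraries, with a median of 5.29%. The lowest mock library was above the highest MMS library.

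**Figure D1:**
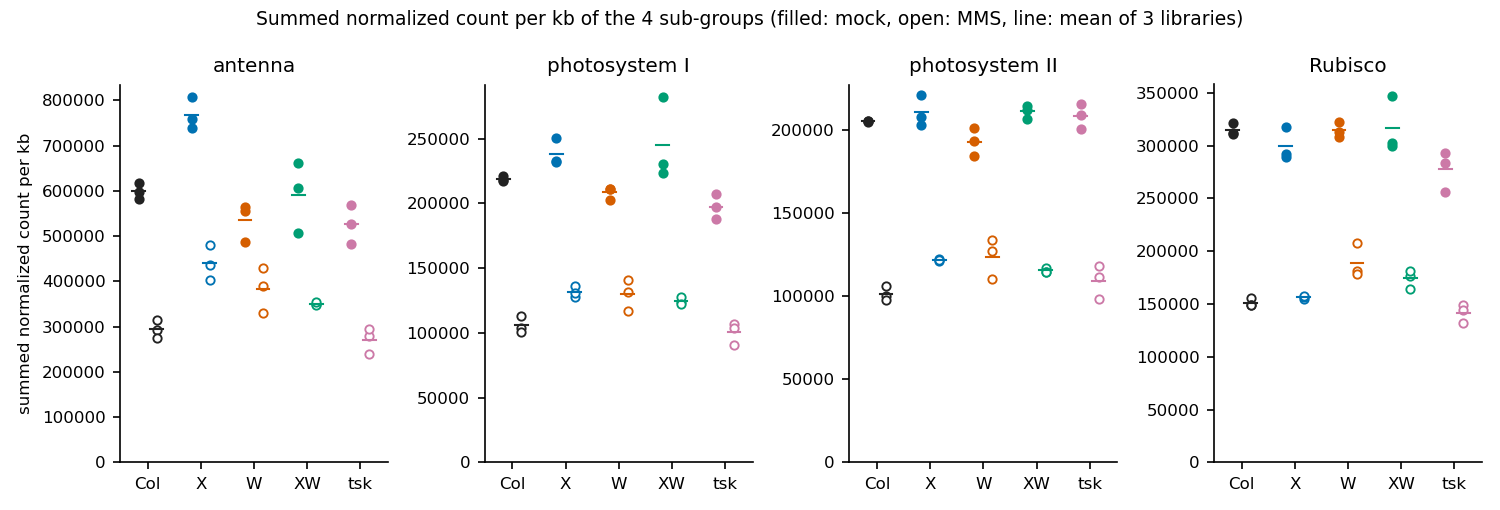
Summed normalized count per kb of exon (vertical axes, starting at 0) of the antenna, photosystem I, photosystem II and Rubisco genes in each of the 30 libraries, by genotype; filled points are mock, open points MMS, and lines are means of 3 libraries. Every MMS point lies below the mock points of its genotype, X mock antenna sums (737891 to 806494) lie above those of Col mock (582138 to 617787), and 1 XW mock library is low for the antenna (506276) and high for photosystem I (282325).

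MMS lowered the whole set in wild type. All 42 genes fell in Col, by a median of 1.16 on the log2 scale and with a range from -2.55 (LHCB2.3) to -0.36 (PSAE2), and 29 of them fell by more than 1 on the log2 scale. In Col, 71.1% of all 20256 genes tested were called by limma at a Benjamini-Hochberg adjusted p under 0.05, 35.6% as lower and 35.5% as higher, and the median change over all genes was 0.01. The sub-groups fell by similar amounts, with medians of -1.20 for the antenna, -1.18 for photosystem II, -1.11 for photosystem I and -1.21 for Rubisco. Within the antenna, the 14 LHCB genes had a median of -1.37 and the 4 LHCA genes one of -0.97. In bulk RNA of seedlings, fewer green cells and less RNA per cell cannot be told apart.

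Among the antenna genes LHCB2.3 (AT3G27690), one of 3 genes for a main protein of the light-harvesting trimers, changed most. It stood at 6409, 4935 and 5794 normalized counts in Col mock replicates 1 to 3 and at 1076, 894 and 942 in Col MMS. The groups were far apart, and the change was -2.55 on the log2(normalized count + 1) scale (standard error 0.17, adjusted p = 1.5e-13). About 33.9% of the 150-base windows of LHCB2.3 lie also in the overlapping gene AT3G27700, whose mean count was 10.4% of that of LHCB2.3 in Col mock and 84.2% of it in Col MMS, and the strand used in counting is not stated in the sources used here. LHCB1.4 (AT2G34430), another trimer antenna gene, changed least of the antenna genes, from 24258, 24086 and 22357 to 14584, 13023 and 16315 (-0.69, SE 0.12, adjusted p = 1e-05).

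The lumenal photosystem II gene PSBO2 (AT3G50820) had the largest fall of its sub-group. It stood at 25511, 24380 and 25180 normalized counts in Col mock and at 7927, 7660 and 7915 in Col MMS (-1.68, SE 0.08, adjusted p = 2.5e-17). PSBO encodes the manganese-stabilizing protein of the water-splitting complex. PSBR changed least, by -0.69 (SE 0.12, adjusted p = 5.4e-06). In photosystem I, PSAH2 (AT1G52230), which takes part in docking the mobile antenna, went from 8962, 8904 and 9057 to 3223, 2860 and 3486 (-1.50, SE 0.08, adjusted p = 3.5e-16). PSAE2 (AT2G20260), which encodes a stromal subunit at the ferredoxin side, changed least of all 42 genes, from 5452, 5783 and 5838 to 4283, 4242 and 4751 (-0.36, SE 0.07, adjusted p = 4.2e-05). In each of these genes the Col mock and Col MMS libraries did not overlap.

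RBCS1B (AT5G38430) had the largest fall of the Rubisco genes, from 22095, 21480 and 21916 normalized counts in Col mock to 5779, 5458 and 6288 in Col MMS (-1.90, SE 0.09, adjusted p = 6.5e-17). RBCS1A, the most abundant of the family, went from 204915, 203306 and 207592 to 113178, 109697 and 105192 (-0.91, SE 0.08, adjusted p = 1.1e-10). The tandem genes RBCS2B and RBCS3B lay between, at -1.36 and -1.07. RBCS1B and RBCS3B share 4.81% and 7.92% of their 150-base windows with each other, and how such shared reads were counted is not given in the sources used here.

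**Figure D2:**
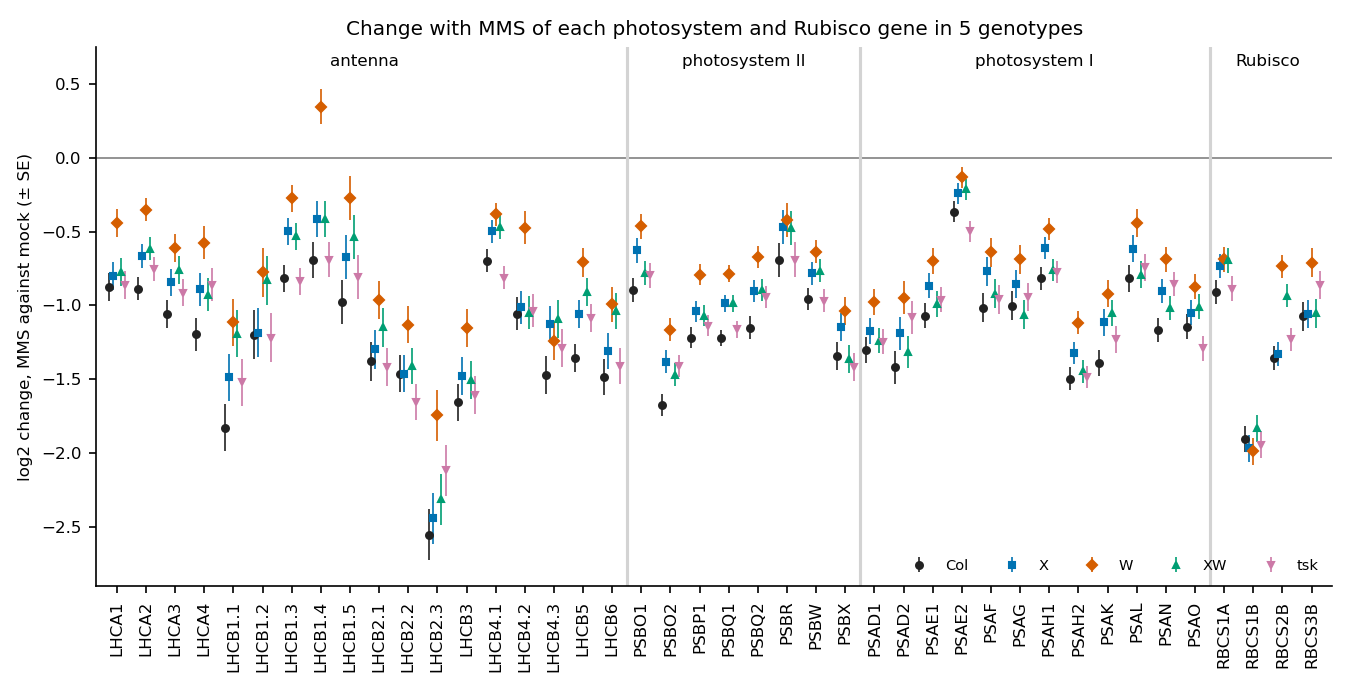
Log2 change, MMS against mock, with its standard error (vertical axis), of each of the 42 genes (horizontal axis, by sub-group), with 1 marker for each of the 5 genotypes, from limma on log2(normalized count + 1). LHCB2.3 (-2.55 to -1.74) and RBCS1B (-1.99 to -1.83) lie lowest, PSAE2 (-0.50 to -0.13) and LHCB1.4 (-0.69 to 0.35) highest, and the W markers lie above those of the other genotypes for most genes.

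The members were also lower after MMS in the mutants. All 42 genes were called lower in X, XW and tsk. Over all genes, 73.1% were called in X (36.9% lower, 36.3% higher), 71.7% in XW (35.5% lower, 36.2% higher) and 71.1% in tsk (35.6% lower, 35.5% higher). The antenna medians were -1.04 in X, -0.92 in XW and -1.06 in tsk, those of photosystem II -0.94, -0.94 and -1.05, those of photosystem I -0.88, -1.01 and -0.96, and those of Rubisco -1.19, -0.99 and -1.06. Without XW mock replicate 1 the medians in XW were -1.03 for the antenna, -0.92 for photosystem II, -0.94 for photosystem I and -0.87 for Rubisco. In W, where 72.9% of all genes were called (36.8% lower, 36.1% higher), 39 members were lower, LHCB1.4 was higher, and 2 were not called, with a median of -0.70. Of the 42 genes, 21 fell by more than 1 on the log2 scale in X, 20 in XW, 21 in tsk and 9 in W, against 29 in Col. The MMS and mock libraries did not overlap for any of the 42 genes in Col, X, XW and tsk, and for 40 of them in W. The shares of all genes without overlap, or with falls of more than 1, were not counted. These counts are therefore not set against a background. The call of PSAE2 in XW (-0.21, adjusted p = 0.0086) was lost without XW mock replicate 2, and that of LHCB1.3 in W (-0.27) without W MMS replicate 2.

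LHCB1.4 moved the other way in W. Its W libraries held 16557, 13047 and 15412 normalized counts after mock and 21624, 16766 and 18885 after MMS. The change was 0.35 (SE 0.12, adjusted p = 0.012). It fell to 0.25 and was no longer called without W mock replicate 2 or without W MMS replicate 1. The sum of the 5 LHCB1 genes was lower in W after MMS (-0.35, adjusted p = 0.015). With the LHCB1, LHCB2 and tandem RBCS genes each summed by family, 0 of 34 features were called higher in W by limma, adjusted or not. LHCB1.4 is then part of a sum, so that run cannot call it alone. The 2 members not called in W were LHCB1.5 (-0.27, adjusted p = 0.098) and PSAE2 (-0.13, adjusted p = 0.091).

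The order in which the 42 genes responded was alike in the genotypes, whose MMS comparisons share no library with each other. Across the 42 genes, Pearson's r between the log2 changes of 2 genotypes ranged from 0.89 (Col and W) to 0.97 (Col and X), and Spearman's rho from 0.86 to 0.96. The genes share libraries within a genotype, differ widely in level and are not independent replicates, so no p is given. LHCB2.3 and RBCS1B had the lowest mean ranks over the 5 genotypes, followed by LHCB3, whose changes ran from -1.66 to -1.15. At the other end stood PSAE2, LHCB1.4 and PSBR, whose changes ran from -0.69 to -0.42.

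In some families, related genes did not fall by the same amount. Of 12 pairs of related genes compared, 6 had mock and MMS ratios that did not overlap in any of the 5 genotypes, 3 pairs did not overlap in 4 genotypes, and the remaining 3 in 3, 2 and 1. The 12 pairs were picked and are not all possible pairs within the families. The share of other gene pairs without overlap was not counted, so these counts have no background beside them. The log2 ratio of PSBO2 to PSBO1, per kb of exon within a library, had a median of -1.15 over the 15 mock libraries (range -1.58 to -1.06) and of -1.92 over the 15 MMS libraries (-2.22 to -1.74). The ratio of PSAH2 to PSAH1 went from a median of 0.60 (0.47 to 0.70) to -0.10 (-0.32 to 0.06). Per kb, PSAH2 was thus the higher of the pair in every mock library and the lower one in most MMS libraries. That order rests on the exon lengths used, 702 bases for PSAH2 and 1300 for PSAH1. In normalized counts PSAH1 was the higher in every mock library, with 10401, 10517 and 10455 against 8962, 8904 and 9057 in Col mock. The ratio of PSAE2 to PSAE1 rose instead, from -1.24 (-1.86 to -1.17) to -0.65 (-0.85 to -0.54). The lowest mock value came from XW mock replicate 1, without which the mock range was -1.41 to -1.17.

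Ratios also differed between mock and MMS in the Rubisco and antenna families. RBCS1B to RBCS1A went from a median of -3.83 (-4.04 to -3.61) to -5.02 (-5.28 to -4.64). LHCB2.3 to LHCB2.1 went from -1.64 (-1.86 to -1.28) to -2.56 (-3.03 to -2.25), and without XW mock replicate 1 its highest mock value was -1.41. LHCB4.3 to LHCB4.1 went from -6.79 (-7.04 to -6.05) to -7.42 (-8.00 to -6.69). With the 3 pairs above, these make up the 6 pairs without overlap. RBCS2B to RBCS1A (medians of -1.59 in mock and -1.85 in MMS), LHCB4.2 to LHCB4.1 (-1.58 and -1.87) and LHCB1.4 to LHCB1.5 (-2.10 and -1.84) did not overlap in 4 genotypes, and RBCS3B to RBCS1A in 3. PSBQ2 to PSBQ1 and PSAD2 to PSAD1 did not overlap in only 1 and 2 of the 5 genotypes, with medians of -1.29 and -1.18 for the first pair and -1.24 and -1.26 for the second in mock and MMS. Exon length adds a constant to each ratio and does not move the difference between libraries. PSAE1 and PSAH1 share 18.2% and 44.7% of their 150-base windows with overlapping genes.

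**Figure D3:**
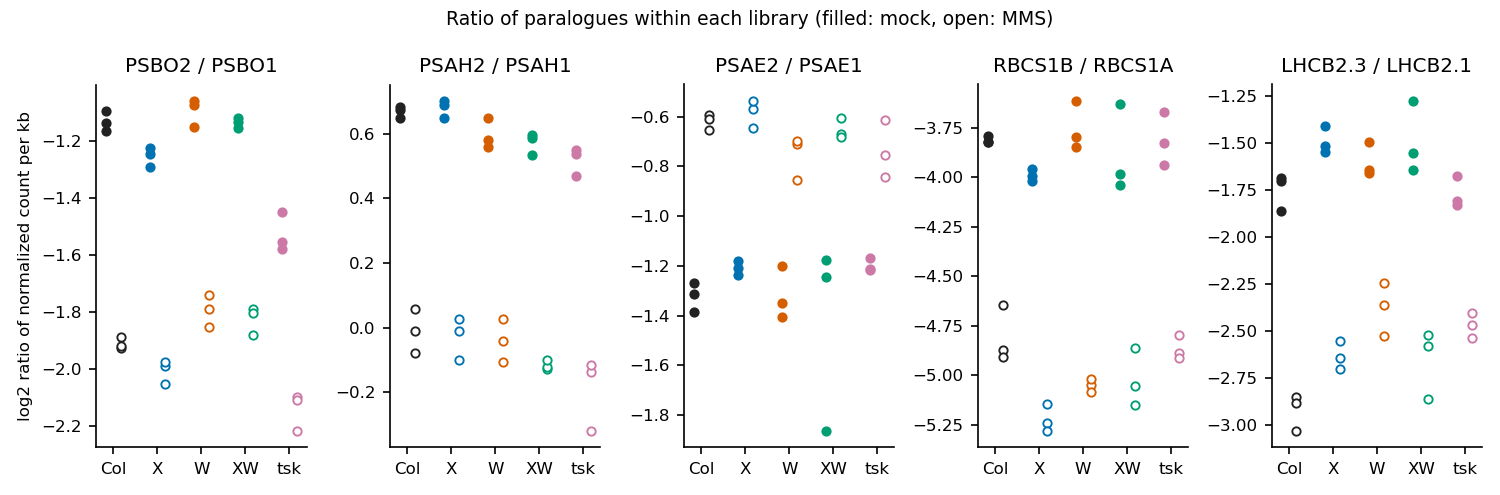
Log2 ratio of normalized count per kb (vertical axis) of 5 pairs of related genes within each of the 30 libraries, by genotype; filled points are mock and open points MMS. In each pair the open and filled points do not overlap within any genotype, the PSAE2 to PSAE1 ratio is the only one of the 5 that is higher after MMS, and tsk mock lies below the other mock groups for PSBO2 to PSBO1 (mean -1.53 against -1.13 in Col).

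The mutants were next compared with Col after mock treatment, where the question is whether these genes differ in the mutants without MMS. All 4 comparisons share the 3 Col mock libraries. In X, 12 of the 42 genes were called, 11 higher and 1 lower, beside 7.48% of all genes (4.29% higher, 3.20% lower). With the compared groups alone in the model the count was 22 (20 higher, 2 lower). With genes summed by family it was 5 of 34 features, all higher, where the called LHCB1, LHCB2 and RBCS2B genes stand within sums. Of the 12, 10 were antenna genes and all 10 were higher. The antenna median was 0.44, against 0.06 for photosystem II, whose 8 genes ranged from -0.12 to 0.16, 0.10 for photosystem I and -0.13 for Rubisco, and against 0.00 over all genes.

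The genes for the light-harvesting trimers led the change in X. LHCB2.2 (AT2G05070) stood at 12812, 10976 and 11560 normalized counts in Col mock and at 18621, 20290 and 17613 in X mock (0.68, SE 0.12, adjusted p = 0.00061). LHCB2.3 stood at 9652, 11654 and 9284 in X mock, above its 3 Col mock values given before (0.84, SE 0.17, adjusted p = 0.0023). All X libraries were above all Col libraries for both genes. LHCB1.1, LHCB1.2, LHCB1.4, LHCB1.5, LHCB2.1 and LHCB3 were higher by 0.54 to 0.70, and the photosystem I antenna genes LHCA1 and LHCA4 by 0.49 and 0.40. Among the other sub-groups, PSAO, a peripheral photosystem I subunit, was higher by 0.27 (adjusted p = 0.047), and RBCS2B was lower by 0.27 (log2 change -0.27, adjusted p = 0.029).

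The summed antenna level was 767924 ± 35089 per kb in X mock against 599438 ± 17848 in Col mock, and the log2 ratio of the antenna to the photosystem I sum was 1.69 ± 0.02 against 1.45 ± 0.03 (SD, n = 3). The number called fell from 12 to 7 without Col mock replicate 2, Col mock replicate 3 or X mock replicate 1. LHCA1, LHCB1.2, LHCB1.4, LHCB2.1, LHCB2.2, LHCB2.3 and LHCB3 remained called whichever library was left out. LHCA4, LHCB1.5 and PSAO lost their calls whichever of the 6 libraries was left out, RBCS2B was called only without X mock replicate 2, and LHCB1.1 only without Col mock replicate 1 or X mock replicate 3. With the 5 LHCB1 genes summed, their rise was 0.37 and was not called (adjusted p = 0.068), while that of the 3 LHCB2 genes was 0.65 (adjusted p = 0.0018).

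Clock and light-signalling genes, which can drive LHCB transcription through the day, also differed in X mock. Of 11 clock genes, a list added after the data had been seen, 4 were called. LHY, a morning transcription factor, was lower by 0.70 (log2 change -0.70, adjusted p = 0.00053) and RVE8 by 0.37 (-0.37, adjusted p = 0.018), while PRR7 was higher by 0.46 (adjusted p = 0.0013). Of 14 regulators tested, 2 were higher and 3 lower. The phytochrome-interacting factors PIF5 and PIF4 were higher by 0.56 and 0.55, and SIG1, a sigma factor of the plastid polymerase, was lower by 0.33 (log2 change -0.33). LHY was also lower in XW mock (-0.53, adjusted p = 0.0023) and in tsk mock (-0.58, adjusted p = 0.00086), where the antenna medians were 0.00 and -0.13. The harvest time is not given in the labels, and the part of clock phase in these differences was not tested. Of the other photosynthesis lists in X mock, the 21 chlorophyll synthesis genes ranged from -0.12 to 0.07 with a median of -0.04, and 4 of 16 Calvin cycle genes were lower, among them RPE (-0.19), FBA2 (-0.28) and RPI3 (-0.22).

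In W mock, 3 of the 42 genes were called and all 3 were lower, beside 13.1% of all genes (6.05% higher, 7.08% lower). LHCB1.4 changed most, at 16557, 13047 and 15412 normalized counts against 24258, 24086 and 22357 in Col (-0.66, SE 0.12, adjusted p = 0.00041). No W library reached the Col range, and the call held whichever library was left out. LHCB1.3 (-0.27, adjusted p = 0.045) and RBCS2B (-0.26, adjusted p = 0.028) were lower too, but both lost their calls whichever of the 6 libraries was left out, so the count was then 1. With the compared groups alone in the model 8 were called, all lower. With genes summed by family 0 of 34 features were called by limma (lowest adjusted p = 0.062, with 5 lower at an unadjusted p under 0.05). The share of all genes at that unadjusted p was not counted. The sum of the 5 LHCB1 genes changed by -0.23 (adjusted p = 0.24). All 3 called genes stand within sums there, so that run cannot call them alone.

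In XW mock, 3 genes were higher and 1 lower, beside 25.3% of all genes (11.8% higher, 13.5% lower). RBCS2B was lower, at 51298, 43776 and 40759 normalized counts against 57371, 57885 and 58057 in Col (-0.36, SE 0.08, adjusted p = 0.0011), and this held without each library in turn. LHCB3 (0.36), LHCB4.3 (0.39) and PSAH1 (0.21) were higher. Without XW mock replicate 1 the rise of PSAH1 was 0.10, and PSAH1 and LHCB3 were no longer called, which left 1 gene higher and 1 lower. LHCB3 kept its call only without XW mock replicate 2, LHCB4.3 only without Col mock replicate 3 or XW mock replicate 1, and PSAH1 only without XW mock replicate 2 or 3. The count was 1 without Col mock replicate 1 or 2, 2 without Col mock replicate 3, 8 without XW mock replicate 2 and 7 without XW mock replicate 3. DESeq2 called 7 (6 higher, 1 lower).

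In tsk mock, 1 gene was higher and 4 lower, beside 26.0% of all genes (10.9% higher, 15.1% lower). PSBO1 was the higher one, at 78724, 74365 and 72428 normalized counts against 61895, 62091 and 62946 in Col (0.27, SE 0.08, adjusted p = 0.017). LHCB1.3 was lower, at 156260, 142373 and 152317 against 199418, 194144 and 180040 (-0.35, adjusted p = 0.0052). PSBQ1, PSAD2 and PSAH2 were lower by 0.17 to 0.34 (log2 changes of -0.17, -0.34 and -0.23). The call of PSBO1 was lost without Col mock replicate 1 or tsk mock replicate 1. The total was 1 without Col mock replicate 1, 3 without Col mock replicate 2, Col mock replicate 3 or tsk mock replicate 2, and 2 without tsk mock replicate 3. PSBQ1 and PSAH2 kept their calls only without tsk mock replicate 1, and PSAD2 lost its call without Col mock replicate 1 or tsk mock replicate 2 or 3. On the deposited FPKM values 2 genes were called, both higher, while edgeR called 8 (2 higher, 6 lower). With the compared groups alone in the model 22 were called, 3 higher and 19 lower.

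PSBO1 (AT5G66570) lies at chr5:26568572-26570461 in a stretch where most genes were higher in tsk. Of the 20 tested genes nearest to it, 17 were above 0 in tsk mock with a median of 0.38, and 19 in tsk MMS with a median of 0.48, against 0.27 and 0.37 for PSBO1 itself. PSBR (chr1:29735952-29737009) had 0.16 in tsk mock beside a median of 0.31 in its 20 neighbours, 19 of them above 0. By contrast, the 20 neighbours of LHCB1.3 had a median of -0.06 in tsk mock, with 6 above 0. Of all 20256 genes tested, 8813 were above 0 in tsk mock with a median of -0.04, and 9134 in tsk MMS with a median of -0.03. What raised the neighbourhoods of PSBO1 and PSBR in tsk was not tested.

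**Figure D4:**
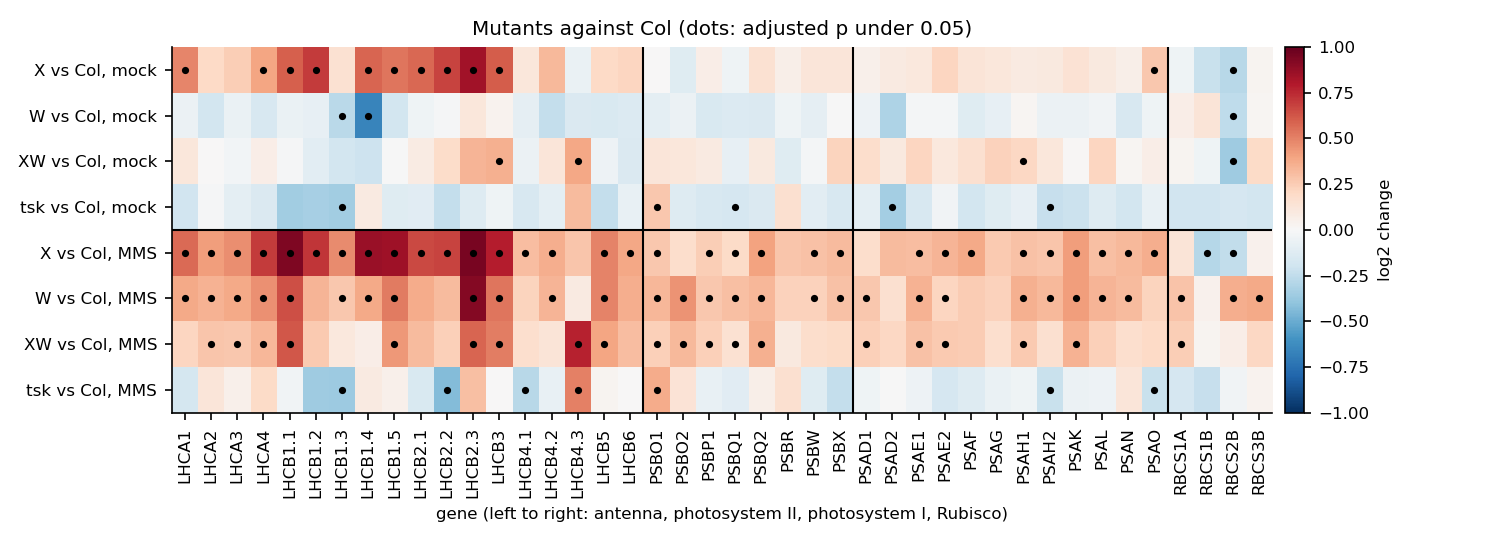
Log2 difference from Col (colour, red higher and blue lower in the mutant, with the scale ending at -1 and 1) of each of the 42 genes (columns, by sub-group) in X, W, XW and tsk after mock (upper lines) and MMS (lower lines), from limma on log2(normalized count + 1); dots mark an adjusted p under 0.05. Red fills most antenna columns of X (medians 0.44 after mock and 0.61 after MMS), and most columns of W and XW are red after MMS.

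After MMS, 32 of the members were higher in X than in Col and 30 in W. The 4 comparisons share the 3 Col MMS libraries. In X MMS the 42 genes gave 32 higher and 2 lower calls, beside 11.0% of all genes (6.46% higher, 4.50% lower). The higher ones were 17 of 18 antenna, 6 of 8 photosystem II and 9 of 12 photosystem I genes, with sub-group medians of 0.61, 0.27 and 0.31, and the Rubisco median was -0.10. LHCB1.4 stood at 30698, 23957 and 25317 normalized counts against 14584, 13023 and 16315 in Col MMS (0.86, SE 0.12, adjusted p = 1.9e-05), with no overlap. LHCB2.3 and LHCB1.1 were higher by 0.95 and 0.94, the photosystem II gene PSBQ2 by 0.41 (adjusted p = 0.0006), and the photosystem I genes PSAK and PSAE2 by 0.42 and 0.34.

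Among the Rubisco genes 2 were lower in X MMS, RBCS1B by 0.28 and RBCS2B by 0.25 (log2 changes -0.28 and -0.25, adjusted p = 0.039 for both). RBCS1B lost its call without Col MMS replicate 1 or 3 or X MMS replicate 1 or 3, and RBCS2B kept it only without Col MMS replicate 2. RBCS1A (0.13, adjusted p = 0.35) was not called. The total of 34 fell to 22, all higher, without X MMS replicate 1. The log2 ratio of the antenna to the photosystem I sum was 1.74 ± 0.08 in X MMS and 1.48 ± 0.03 in Col MMS (SD, n = 3).

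In W MMS, 30 of the 42 genes were higher and none lower, beside 11.7% of all genes (7.75% higher, 3.93% lower). These were 12 of 18 antenna, 7 of 8 photosystem II, 8 of 12 photosystem I and 3 of 4 Rubisco genes, with medians of 0.38, 0.30, 0.29 and 0.32. LHCB5 (AT4G10340), for the minor antenna protein CP26, stood at 33050, 25705 and 28544 normalized counts against 20622, 19169 and 21710 in Col MMS (0.50, SE 0.10, adjusted p = 0.00077). PSBO2 was higher by 0.45 (adjusted p = 0.00019), LHCB2.3 by 0.92 (adjusted p = 0.0006), PSAH1 by 0.35 (adjusted p = 0.0021) and RBCS2B by 0.36 (adjusted p = 0.0024). W MMS replicate 1 was the highest of its group for LHCB5, LHCB1.4, LHCB2.3 and RBCS2B, and the total fell to 12 without it, to 17 without Col MMS replicate 2, and rose to 35 without W MMS replicate 2. It was 14, all higher, with the compared groups alone in the model.

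In XW MMS, 20 genes were higher and none lower, beside 25.3% of all genes (12.8% higher, 12.5% lower). These were 9 antenna, 5 photosystem II, 5 photosystem I and 1 Rubisco gene. LHCB4.3 (AT2G40100) led, at 373, 334 and 299 normalized counts against 201, 194 and 191 in Col MMS (0.77, SE 0.13, adjusted p = 4.7e-05). LHCB1.1 was higher by 0.62, PSBQ2 by 0.35 (adjusted p = 0.00088) and PSAK by 0.35. RBCS1A was higher by 0.24, but not without Col MMS replicate 2 or 3 or XW MMS replicate 1 or 2. The total was 8 without Col MMS replicate 2, 12 without XW MMS replicate 1 and 13 without Col MMS replicate 1.

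In tsk MMS, 2 genes were higher and 5 lower, beside 30.3% of all genes (12.8% higher, 17.5% lower). LHCB4.3, at 282, 289 and 261 normalized counts, was higher than in Col by 0.50 (SE 0.13, adjusted p = 0.0035) and PSBO1 by 0.37 (adjusted p = 0.0011). LHCB1.3, at 84993, 91503 and 76528 against 105964, 107773 and 111707, was lower (-0.37, adjusted p = 0.0026). LHCB2.2 (-0.43), LHCB4.1 (-0.28), PSAH2 (-0.22) and PSAO (-0.22) were also lower, and none of these 4 was called without tsk MMS replicate 3. PSAH2 and PSAO also lost their calls without Col MMS replicate 1 or 3, and the total was 4 without tsk MMS replicate 3.

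Whether MMS acted differently in a mutant than in Col was tested with the interaction of genotype and treatment. The 4 tests share the Col libraries, and W had the highest count. In W, 19 of the 42 genes had a response above that of Col and none one below it, beside 7.02% of all genes (4.40% above, 2.62% below). These were 10 antenna, 5 photosystem II, 3 photosystem I genes and 1 Rubisco gene, and the median difference over the 42 genes was 0.43, against 0.02 over all genes. In 18 of the 19 genes the log2 change was negative in both genotypes and nearer 0 in W, and LHCB1.4 had the rise given before. The count was 12 without W MMS replicate 1 and 27 without W MMS replicate 2.

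LHCB1.4 had the largest difference, 1.04 (SE 0.17, adjusted p = 0.00034). Its W mock libraries lay below and its W MMS libraries above those of Col, so both treatments contributed to it. RBCS2B (AT5G38420) had the next smallest adjusted p, with 48035, 47447 and 49492 normalized counts in W mock and 32612, 28629 and 26170 in W MMS, against 57371, 57885 and 58057 and 23663, 21132 and 23001 in Col (0.62, SE 0.11, adjusted p = 0.00072). PSBQ1 (AT4G21280), for a lumenal photosystem II protein, went from 19545, 20105 and 20626 to 12384, 11258 and 11387 in W and from 21921, 21914 and 22344 to 9503, 8856 and 10071 in Col (0.44, SE 0.08, adjusted p = 0.00093). For both genes the W mock range lay below the Col mock range and the W MMS range above that of Col MMS.

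LHCB5 stood at 49812, 42664 and 49747 in W mock and differed in response by 0.65 (SE 0.14, adjusted p = 0.0033). PSBO2 differed by 0.51, LHCA4 by 0.62, LHCA2 by 0.54 and PSAN by 0.48 (adjusted p = 0.011). These calls, with those of LHCB1.3, LHCB1.4, PSBP1, PSBQ1, PSBQ2 and RBCS2B, held without each of the 12 libraries in turn. Those of LHCA1, LHCA3, LHCB1.5, LHCB2.3 and PSAH2 were each lost without 7 or more of the 12 libraries, among them W MMS replicate 1. PSBO1 (0.43) lost its call without Col mock replicate 3, W mock replicate 1 or W MMS replicate 1, PSAK (0.47) without Col MMS replicate 1 or W MMS replicate 1, and LHCB4.2 (0.58) without W mock replicate 2 or Col MMS replicate 2. RBCS1B, next to RBCS2B on the chromosome, had a difference of -0.08 (SE 0.13, adjusted p = 0.78).

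In XW, 2 of the 42 genes differed from Col in their response, beside 8.92% of all genes (3.85% above, 5.07% below). RBCS2B went from 51298, 43776 and 40759 to 23418, 24556 and 22824 normalized counts, a difference from the Col response of 0.42 (SE 0.11, adjusted p = 0.014) that was called without each library in turn. LHCB5 went from 42442, 53432 and 56891 to 27281, 26359 and 27190 (0.45, SE 0.14, adjusted p = 0.035). The difference of LHCB5 was 0.32 and not called without XW mock replicate 1, the lowest of its group, and it was called without only 3 of the 12 libraries. The total was 5 without XW mock replicate 3, and 1 without any 1 of the Col mock, Col MMS or XW MMS libraries other than Col MMS replicate 3. It was also 1 on the FPKM values, with the compared groups alone in the model, and with genes summed by family, where RBCS2B is part of a sum.

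In X and in tsk, 0 of the 42 genes differed from Col in their response by limma, beside 1.99% of all genes in X (1.08% above, 0.908% below) and 2.49% in tsk (1.37% above, 1.13% below). At an unadjusted p under 0.05 there were 8 in X and 4 in tsk. The share of all genes at that unadjusted p was not counted, so these 2 counts have no background beside them. By adjusted p, edgeR and DESeq2 also called 0 in both. With the compared groups alone in the model limma called 3 in X, all above the response of Col, and 0 in tsk. In X the 42 differences ranged from -0.06 to 0.34 with a median of 0.20, 40 of them above 0, and the lowest adjusted p was 0.13. Of all 20256 genes, 10209 were above 0 in X, with a median of 0.00. So were all 16 Calvin cycle and all 11 electron transport genes, with medians of 0.15 and 0.16, and 16 of 21 chlorophyll synthesis genes (0.06). The standard errors of the members' differences were 0.08 to 0.24, and a missing call does not show that the responses were alike.

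**Figure D5:**
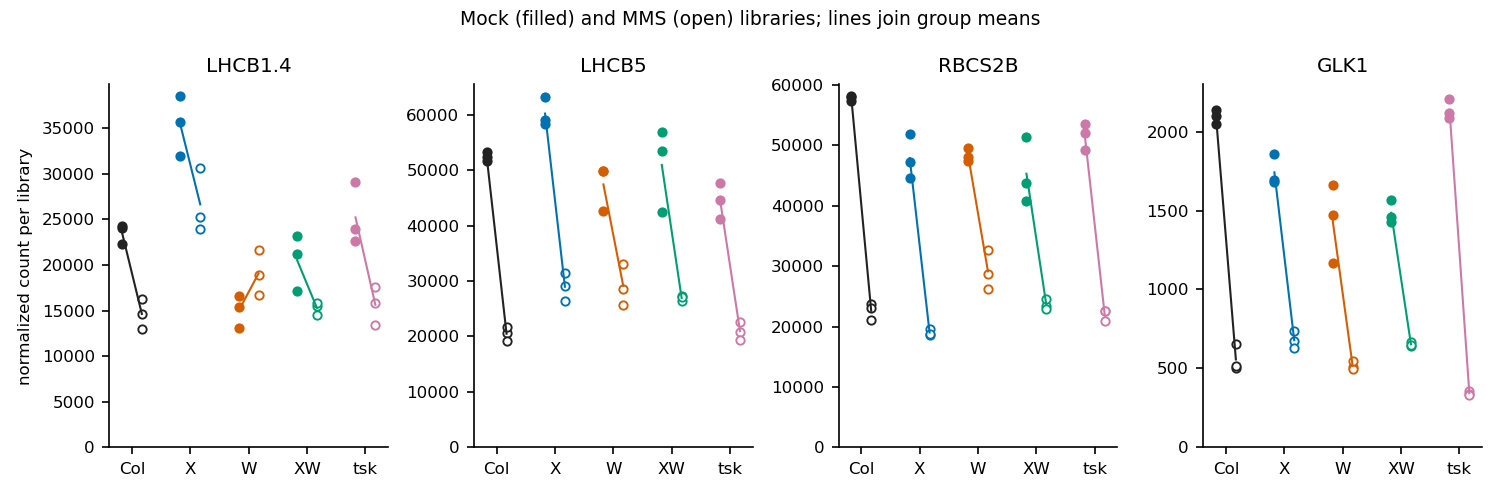
Normalized counts (vertical axes, linear and starting at 0) of LHCB1.4, LHCB5, RBCS2B and the regulator GLK1 in each of the 30 libraries, by genotype, with filled points for mock, open points for MMS and lines joining group means. In W the line of LHCB1.4 rises while it falls in Col, those of LHCB5 and RBCS2B are less steep than in Col, and GLK1 in tsk MMS (334 to 359) lies below GLK1 in Col MMS (502 to 652).

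The regulators listed for these genes moved under MMS as well. GLK1 stood at 2138, 2095 and 2050 normalized counts in Col mock and at 502, 652 and 517 in Col MMS (-1.92, SE 0.09, adjusted p = 5.9e-17), and GLK2 changed by -0.87 (SE 0.07, adjusted p = 2.3e-12). GUN1, which acts in signalling from plastid to nucleus, changed by -0.28 (SE 0.04, adjusted p = 1.6e-06), while HY5, an activator in the light, rose by 0.77 (SE 0.13, adjusted p = 3.6e-06). Of 14 regulators tested, 4 were higher and 10 lower in Col, among them PIF3 at 2.32 and SIG2 at -0.86. The response of GLK1 differed between genotypes, with -1.36 in X, -1.45 in W, -1.18 in XW and -2.64 in tsk.

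Each of these GLK1 responses differed from that of Col by the interaction test, above it by 0.56 in X (adjusted p = 0.016), 0.47 in W (adjusted p = 0.023) and 0.73 in XW (adjusted p = 0.00026), and below it by 0.72 in tsk (-0.72, adjusted p = 0.0018). Of the members, 19 were called in W, 2 in XW and 0 in X and tsk by the same test, and differences between the mutants' own responses were not tested. In tsk MMS, where GLK1 stood at 359, 336 and 334, GLK1 was lower than in Col MMS (-0.69, adjusted p = 1e-06), and 30.3% of all genes and 7 of the 42 members were called. Whether GLK1 has a part in the members' values was not tested.

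Against Col after mock, GLK1 was lower in W (-0.56, adjusted p = 7.4e-05) and XW (-0.50, adjusted p = 0.00015), and stood at -0.27 in X (adjusted p = 0.068) and 0.03 in tsk, neither called. GLK2 was lower in W (-0.21) and XW (-0.20), and GUN1 in XW (-0.15) and tsk (-0.19). HY5 was called in none of the 4 mutants after mock, with -0.33 in XW as its largest value (adjusted p = 0.052). After MMS, GLK1 was higher in X (0.29, adjusted p = 0.035) and was not called in W (-0.09) or XW (0.24, adjusted p = 0.052). GLK2 was lower in XW (-0.21) and tsk (-0.28), and GUN1 (-0.11) and HY5 (-0.40) were lower in tsk and not called in the other 3 mutants. The mutants were not tested against each other.

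Other genes of photosynthesis fell with the 42 in Col. All 16 Calvin cycle genes were lower, with a median of -1.28, among them CP12-2 (-2.57), FBA1 (-2.06) and HCEF1 (-1.48). All 11 genes of electron transport and the ATP synthase were lower, with a median of -1.14 and with PETE1, for plastocyanin, at -2.07. Of 21 chlorophyll synthesis genes 20 were lower, with a median of -0.96 and with the protochlorophyllide reductase gene PORC at -1.99. Of 5 rare or stress-related relatives of the antenna genes 3 were lower, LHCA6 by most (-2.47). Among 7 genes of senescence and chlorophyll breakdown, 5 were higher and 2 lower, with ORE1, a transcription factor of leaf ageing, at 2.83 and SEN1 at 1.85. These lists overlap in no gene with the 42.

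In the comparison of W with Col after MMS, 8 of 16 Calvin cycle genes were higher and none lower, with a median of 0.22, and 5 of 11 electron transport genes were higher and none lower, beside 7.75% of all genes higher. In X MMS the Calvin cycle and chlorophyll synthesis genes had medians of 0.02 and 0.06, beside 0.61 for the antenna. For tsk mock, 13 of 21 chlorophyll synthesis genes were lower with a median of -0.19, and 7 of 16 Calvin cycle genes were lower and 1 higher. The higher one was HCEF1 at 0.85, and of the 20 tested genes nearest to it on the chromosome 18 were above 0 in tsk mock, with a median of 0.92.

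Markers of other tissues moved in some of the same comparisons. In Col MMS, 9 of 11 root markers were lower and 1 higher, with TIP2;3 at -2.03, SHR at -0.66, and PHT1;1 as the higher one. In tsk mock, 3 were higher and 2 lower, with TIP2;3 at -1.87, and in W MMS 3 were higher and none lower. CRA1 stood at 192, 107 and 151 normalized counts in Col mock and at 1053, 1550 and 2504 in tsk mock (3.45, adjusted p = 2.8e-05), and was higher in XW mock by 2.53 (adjusted p = 0.001). The other seed markers were absent from the deposited tables, in which 0 of the normalized counts were zero. The part of tissue make-up in the values of the 42 genes was not tested.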

How the data were processed

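Per the submitters' processing notes, reads were handled with STAR, DESeq2 1.30.1 and the TAIR10 build; the read counter, the annotation, strand and filters are not given in the sources used here. The authors deposited FPKM values and a normalized signal, in which each gene's reads are scaled by the size factor of the library. All deposited normalized values (100%, tolerance 0.01 of a read) were whole multiples of the smallest step of their library, so whole read counts were recovered. The deposited FPKM imply gene lengths unrelated to annotated exon lengths (Spearman's rho of -0.0019 across 20404 genes; ratio 0.288 to 3.50 from the 5th to the 95th percentile). The cause was not tested. FPKM were therefore used only within a gene, and levels of different genes were compared as normalized counts per kb of TAIR10.1 exon in place of the FPKM planned.

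Each of 17 comparisons was fitted with limma 3.58.1 (R 4.3.3) on log2(normalized count + 1) with trended empirical Bayes moderation, in 1 model of all 30 libraries with 20 residual degrees of freedom. The 20256 genes with at least 10 normalized counts in at least 3 libraries were tested, and 148 were left out. P-values were Benjamini-Hochberg adjusted over all genes within a comparison. The other tests were edgeR 4.0.16 (quasi-likelihood, TMM) and DESeq2 1.42.0 on the recovered counts, limma with TMM scaling, limma on FPKM and a pseudocount of 10. Further settings were no filter, the compared groups alone, a replicate block, genes summed by family (LHCB1, LHCB2, and RBCS1B to RBCS3B), and each library left out. The fit was checked on simulated data. The genes named are, for each comparison and sub-group, the called member with the smallest adjusted p, the largest rise and fall, and family members with unlike calls, with per-library values for the leading ones. From 110 listed genes of other pathways, 97 of them tested, up to 3 called genes per list and comparison with the smallest adjusted p were named, with GLK1, GLK2, GUN1 and HY5 in Col MMS and in the comparisons with Col. Other members named were chosen after their values were seen. The members, lists and tests were chosen with earlier results of these data known, and the clock list was added after the data had been seen. Promoters are the 250 bases before the RefSeq gene start, and all 42 members matched.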

Additional observations from a re-analysis of the deposited data

Results flagged for a closer look

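The 19 genes whose MMS response in W differed from that in Col by the interaction test were all on the same side, with a smaller fall in W or, for LHCB1.4, a rise. The differences on the log2 scale were 1.04 for LHCB1.4, 0.81 for LHCB2.3, 0.70 for LHCB1.5, 0.65 for LHCB5, 0.62 for LHCA4, 0.58 for LHCB4.2, 0.54 for both LHCB1.3 and LHCA2, 0.45 for LHCA3 and 0.44 for LHCA1 in the antenna. They were 0.51 for PSBO2, 0.48 for PSBQ2, 0.44 for PSBQ1 and 0.43 for both PSBO1 and PSBP1 in photosystem II. In photosystem I they were 0.48 for PSAN, 0.47 for PSAK and 0.38 for PSAH2, and in Rubisco 0.62 for RBCS2B.

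In XW the responses of LHCB5 (0.45) and RBCS2B (0.42) differed from those in Col. The regulator GLK1 differed in all 4 mutants, by 0.56 in X, 0.47 in W, 0.73 in XW and -0.72 in tsk. ELIP2, an early light-induced relative of the antenna genes, differed by -1.38 in W, -1.37 in XW and -1.18 in tsk, the opposite side from the members called in W and XW. It is 1 of 5 rare or stress-related relatives tested. In W, 2 of these 5 were called above the response of Col and 1 below it. In XW and in tsk, 0 were called above it and 1 below.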

How the results depend on the processing

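Under MMS 42 members were called lower in Col, X and tsk in each alternative run on single genes, 39 to 40 were called in W and 41 to 42 in XW. Where genes were summed by family, 34 features took the place of the 42 genes, and 34 were lower in Col and 33 in W. The 1 higher call in W, LHCB1.4, was lost without W mock replicate 2 and without W MMS replicate 1. With genes summed by family LHCB1.4 is part of a sum and cannot be called alone. Smaller counts depended on the setting. With the compared groups alone in the model, the count against Col was 22 in X mock (12 with all groups), 8 in W mock (3), 22 in tsk mock (5, now 3 higher and 19 lower) and 14 in W MMS (30), and the count of altered responses was 3 in X (0) and 1 in XW (2). With genes summed by family it was 5 in X mock, 0 in W mock by limma and 1 for the response in XW. DESeq2 gave 7 in XW mock (4), edgeR 8 in tsk mock, and FPKM 2 in tsk mock and 1 for the response in XW. The cause was not tested.

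Leaving out each library in turn gave 7 to 8 genes in X mock, 1 to 1 in W mock, 1 to 8 in XW mock and 1 to 4 in tsk mock. It gave 22 to 31 in X MMS, 12 to 35 in W MMS, 8 to 20 in XW MMS and 4 to 10 in tsk MMS. Altered responses came to 12 to 27 in W, 1 to 5 in XW, and 0 to 0 in X and tsk. Of the values of named genes under alternatives, 1361 stayed on their side of the threshold, 191 lost their call and 0 changed sign. FPKM moved the median of all genes by at most 0.08.

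Same-numbered replicates did not deviate together (correlations from -0.11 to 0.09, with 0 of 39 pairs above 0.1), so the main fit did not pair them. Whether they were grown or handled together cannot be told from these values. With the number as a block the counts were 42, 42, 40, 42 and 42 for MMS in Col, X, W, XW and tsk, 12, 4, 4 and 5 for the mutants after mock, 35, 28, 22 and 7 after MMS, and 0, 20, 2 and 0 for the responses of X, W, XW and tsk.

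With 3 libraries a group, standard errors of 0.06 to 0.17 limit what could be called between groups, and those of 0.08 to 0.24 between responses. Strand and the treatment of shared reads are not stated. The 16 members that overlap another gene, and the LHCB1, LHCB2 and RBCS families, are therefore uncertain by gene. All 150-base windows of LHCB1.5 (100%) lie also in the opposite-strand gene AT2G08665, whose mean count was 0.032% of that of LHCB1.5. Whether strand was used in counting was not tested. No LHCB1 gene shared a 150-base window with another LHCB1 gene. LHCB2.1 and LHCB2.2 shared 0.239% and 0.302% of theirs with each other.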
